A study of Homo sapiens with 2 samples.

Results

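Alveolar type II cells are the cuboidal cells of the lung alveolus that make surfactant, the film of phospholipid and protein that lowers surface tension at the air-liquid surface. Their identity rests on the lineage transcription factor NKX2-1, on surfactant proteins, on the lipid enzymes and transporters that fill the lamellar bodies in which surfactant is stored, and on apical membrane proteins. A549 is an established human lung adenocarcinoma line that is often used as a model of these cells. The 10 genes described here (ABCA3, NKX2-1, SFTPB, SFTPC, SFTPD, LPCAT1, NAPSA, MUC1, AQP5 and SLC34A2) were chosen by name from this identity programme. All 10 were measured, by 1 probe set each that carries that single gene symbol, among 18417 named genes.

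The study held 2 arrays, both of RNA recovered from A549 cells with an antibody against Argonaute2 (Ago2), the protein that carries microRNAs and the mRNAs they pair with. The control culture was transfected with an empty vector, miR-130b was overexpressed in the treated one, and each group has 1 array. Replicate errors and p-values could not be had, and each difference compares these 2 arrays, not the conditions. Levels are log2 expression values, and a difference is the miR-130b level less the empty-vector level, so that a value of 1 is a doubling. Input RNA was not analysed here, so a difference can come from the amount of an mRNA or from its share in the precipitate. Nor can a change in the number of cells that hold an mRNA be told apart from a change per cell.

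The labels do not say which arm of the miR-130b hairpin was expected to act. The RefSeq entries of both mature arms are shown because they are the sequences that Ago2 would carry. Capitals mark the seed, bases 2 to 8, which pairs with target mRNAs. Both lie on the plus strand of GRCh38.p14, the 5p arm at chr22:21653316-21653336 and the 3p arm at chr22:21653354-21653375.
hsa-miR-130b-5p: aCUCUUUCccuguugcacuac
hsa-miR-130b-3p: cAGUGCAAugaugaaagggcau
The probe set of the hairpin's gene, MIR130B, stood at 6.66 with the empty vector and at 12.64 with miR-130b, as the labels state. Sites for these seeds in the mRNAs of the 10 genes were not analysed here.

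The arrays had medians of 7.77 each over 33297 probe sets, and Pearson's r between them was 0.985 over the named genes, which are not independent replicates. The files give no detection calls. The 341 olfactory receptor genes, which lung epithelium is not known for expressing, served as a background level instead. Their median was 5.77 on the empty-vector array and 5.86 on the miR-130b array, and their 95th percentile was 7.08 and 7.17. A gene at or below that percentile on an array is called within the olfactory receptor range there. The highest olfactory receptor gene stood at 8.16 and at 8.21. Probe sets differ in how brightly they bind, so this range is a rough mark, and levels of different genes are not ranked against each other. Of the epithelial markers, keratins were high on both arrays: KRT8 stood at 13.38 and 13.48 and KRT7 at 13.21 and 12.92 (empty vector and miR-130b), whereas the epithelial adhesion gene EPCAM was within the olfactory receptor range on both arrays.

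Most of the alveolar type II identity genes were at or near background in these precipitates. Of the 10 genes, 3 (ABCA3, LPCAT1 and MUC1) lay above every olfactory receptor gene on both arrays, as did 54.5% of all named genes. NKX2-1 and SLC34A2 lay within the range on both arrays, as did 4687 of the 18417 named genes. The other 5, SFTPB, SFTPC, SFTPD, NAPSA and AQP5, lay between its upper end and the highest olfactory receptor gene. The genes with a clear signal were thus a lipid transporter, a lipid enzyme and a membrane mucin, and none of the surfactant proteins was among them.

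**Figure D1:**
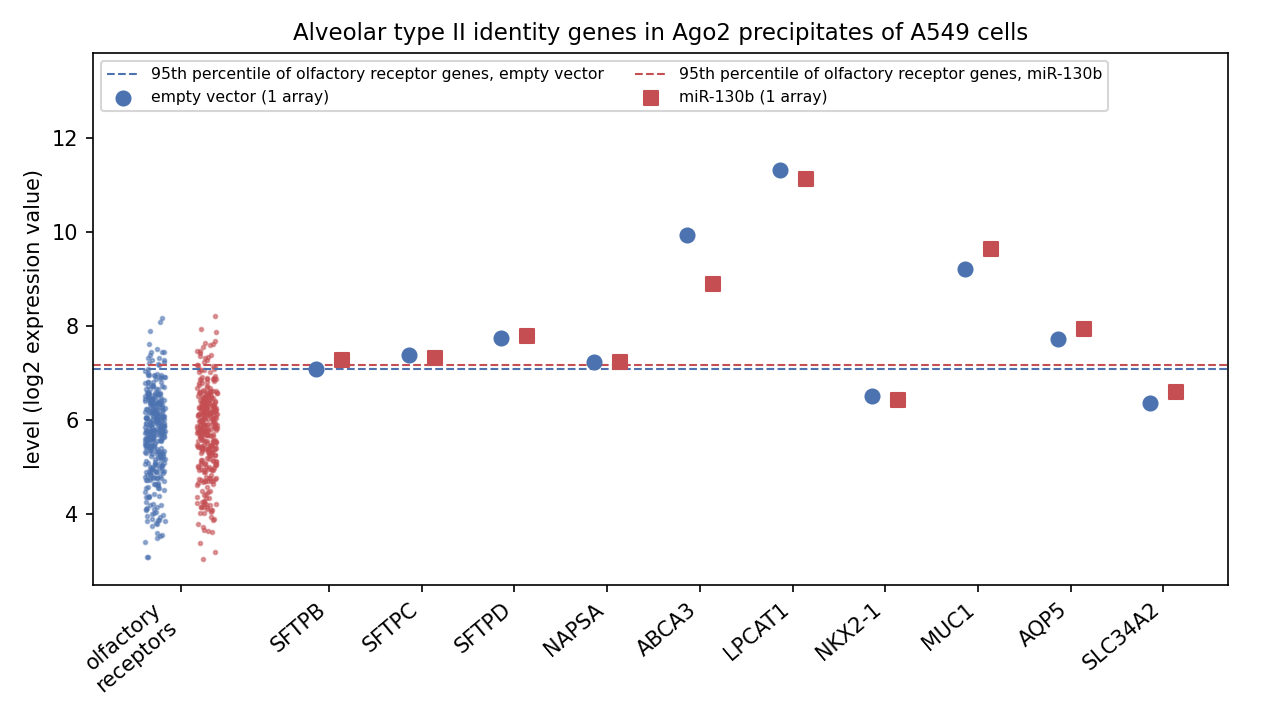
Level of each gene (log2 expression value, vertical axis) on the empty-vector array (circles) and the miR-130b array (squares), 1 array each, with the 341 olfactory receptor genes at the left and their 95th percentile as a dashed line per array (7.08 and 7.17). ABCA3, LPCAT1 and MUC1 stand above all olfactory receptor genes, and NKX2-1 and SLC34A2 stand below both lines.

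For each surfactant protein gene the difference stayed under the probe-set SD (0.18, the pooled SD of the differences that several probe sets of a gene gave). SFTPB encodes the hydrophobic protein that is essential for surfactant film formation, and its levels were 7.09 (empty vector) and 7.26 (miR-130b), a difference of 0.18. These levels exceeded the upper end of the olfactory receptor range by 0.0074 and 0.090, and 17 and 16 olfactory receptor genes were at least as high. SFTPC encodes the other hydrophobic surfactant protein, the most restricted marker of the cell type, and it stood at 7.38 and 7.33, a difference of -0.055. It lay 0.30 and 0.15 above the range, with 9 and 14 olfactory receptor genes at least as high. SFTPD encodes a collectin, a secreted lectin of innate defence. It stood at 7.74 and 7.79, a difference of 0.041, and 3 olfactory receptor genes were at least as high on each array. For all 3 genes the levels on the arrays were nearly the same, and no fold is given because array background adds to such low signals.

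NAPSA encodes napsin A, the aspartic protease that processes the surfactant protein B precursor and is a diagnostic marker of lung adenocarcinoma. It stood at 7.23 on both arrays, the same value to all 6 deposited decimals, and 13 and 16 olfactory receptor genes were at least as high. Such ties occurred in 496 of the 33297 probe sets (1.49%) and in 170 of the 19460 with a single gene symbol, so the tie is a property of some processed values and not a measure of precision. The cause of the ties was not tested.

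The surfactant lipid genes among the 10, ABCA3 and LPCAT1, were clearly measured, and their differences were unlike. ABCA3 encodes the transporter that loads phospholipid into lamellar bodies. It stood at 9.93 with the empty vector and at 8.89 with miR-130b, a difference of -1.04 (2.05-fold lower). Its miR-130b level was still above all 341 olfactory receptor genes, and 1.54% of the 13730 named genes above the olfactory receptor range on at least 1 array had a lower difference. LPCAT1 encodes the acyltransferase that remodels phosphatidylcholine into the dipalmitoyl form that dominates surfactant. It stood at 11.31 and 11.11, a difference of -0.19 (1.14-fold lower), and 22.6% of those genes had a lower difference. So, of the pair, the transporter was past 2-fold and the enzyme was not.

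Where a gene had several different probe sets, their differences varied with a pooled SD of 0.18 (542 genes above the range), which measures disagreement between probes and holds no variation from culture or precipitation. In units of this SD the difference of ABCA3 was -5.64 and that of LPCAT1 was -1.05. Since each of the 10 genes has 1 probe set, none of these differences can be checked on a second probe set.

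NKX2-1, the homeodomain factor that drives surfactant gene transcription, gave no signal above background. It stood at 6.50 and 6.43, where 62 and 75 of the 341 olfactory receptor genes were at least as high. Its difference of -0.074 therefore says nothing about its mRNA.

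Among the apical membrane genes, MUC1 alone was clear of background. MUC1 encodes a transmembrane mucin of glandular epithelia and many carcinomas. Its levels were 9.21 (empty vector) and 9.63 (miR-130b), a difference of 0.42 (1.33-fold higher), or 2.26 pooled SDs between probe sets, and 91.1% of the genes above the range had a lower difference. AQP5 encodes a water channel, which is better known from alveolar type I cells and glands. It stood at 7.73 and 7.93, a difference of 0.20, with 3 and 1 olfactory receptor genes at least as high. SLC34A2 encodes the sodium-phosphate cotransporter that takes up phosphate released from surfactant. Its own probe set stood at 6.37 and 6.59, within the olfactory receptor range on both arrays, where 81 and 55 olfactory receptor genes were at least as high.

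The platform annotation lists SLC34A2 for 1 more probe set, which also carries ROS1 and LRIG3, as fusion transcripts join these genes. That probe set stood at 8.06 with the empty vector and at 6.55, within the olfactory receptor range, with miR-130b, at least 1.85-fold lower. It cannot be assigned to a single gene and is no value of SLC34A2.

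Counted together, 5 of the 10 genes were higher on the miR-130b array, 4 were lower and NAPSA was equal, beside 58.6% of all named genes that were higher. Of the 8 above the olfactory receptor range, 4 were higher and 3 lower, beside 55.8% of all genes above it that were higher. The median difference of the 10 genes was 0.021, beside 0.053 for all named genes, and it turned to -0.032 when differences were centred on the latter. Of the 8 above the olfactory receptor range, 6 differed by less than 2 pooled SDs between probe sets (0.37), as did 77.0% of all genes above it, and ABCA3 and MUC1 differed by more, in opposite directions. Of the same 8 genes, 1 (ABCA3) was at least 2-fold lower, where 1.7% of the 13730 genes above the range were. None of the 8 was at least 2-fold higher, where 1.37% of the 13730 were. With 8 genes, a count of 1 or of 0 does not set the programme apart from that background.

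**Figure D2:**
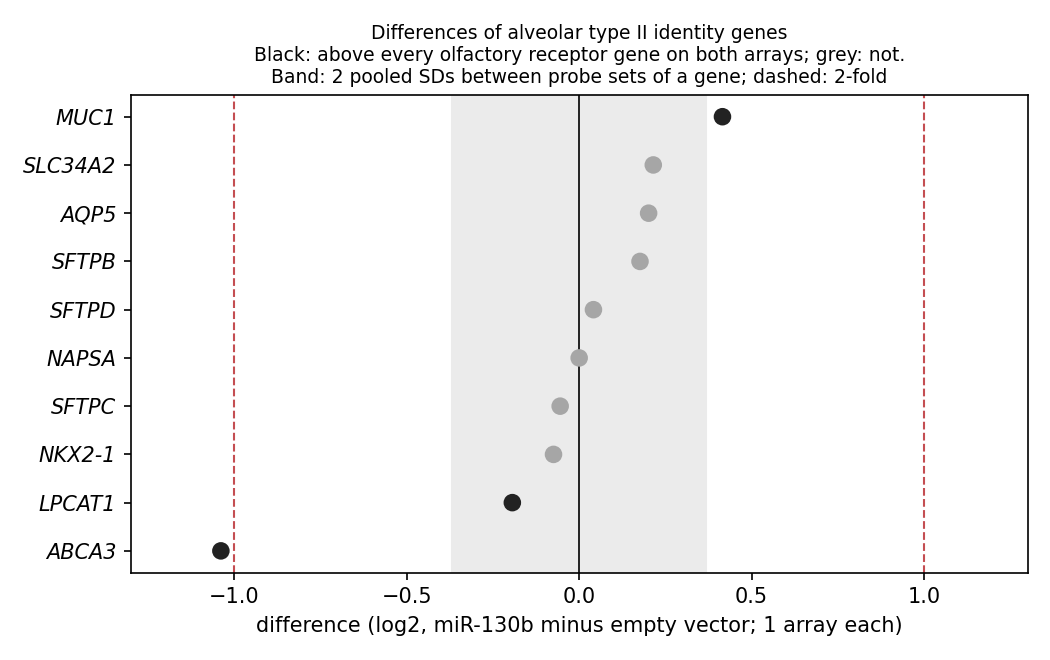
Difference of each gene (log2, miR-130b minus empty vector, 1 array each; horizontal axis), with the band of 2 pooled SDs between probe sets of a gene (0.37 on either side of 0) and dashed lines at 2-fold. ABCA3 (-1.04) lies past the 2-fold line and MUC1 (0.42) just outside the band, while the other 8 genes lie inside it.

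Among relatives that share a protein family with the 10 genes, some families went in 1 direction and others in both. Of 11 other ABCA transporters, 6 were above the range on an array, as were 74.6% of all named genes. Of the 6, 3 had higher and 3 had lower values on the miR-130b array, beside 55.8% of all genes above the range that were higher. ABCA12, the lipid transporter of the skin barrier, stood at 10.34 and 8.11, a difference of -2.23, further below 0 than that of ABCA3. ABCA5 stood at 9.76 and 8.94, a difference of -0.82. ABCA2 stood at 9.05 and 9.54, a difference of 0.49, and ABCA8 went from 5.71, within the olfactory receptor range, to 7.98, at least 1.86-fold higher.

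All 6 measured lysophospholipid and glycerol-phosphate acyltransferases related to LPCAT1 were above the range and had higher values with miR-130b, as had 55.8% of all genes above the range. Their differences ran from 0.073 to 1.22, with a median of 0.31, and that of LPCAT1 was -0.19, about as large as the SD between probe sets. LPCAT2, the isoform of inflammatory cells that also makes platelet-activating factor, reached 12.22 with miR-130b, a difference of 1.22 (2.33-fold higher). LPCAT4 stood at 10.10 and 10.56, a difference of 0.47. Whether LPCAT1 differs from its relatives could not be tested with 1 array per group.

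For SLC34A2, the ubiquitous phosphate carriers SLC20A1 (12.63 and 12.67) and SLC20A2 (10.26 and 10.12) were well above background and differed by 0.035 and -0.14. The kidney isoform SLC34A1, at 7.90 and 8.18, lay among the highest olfactory receptor genes.

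Among 10 other aquaporins, AQP3, a channel for water and glycerol, was the 1 above every olfactory receptor gene on both arrays. It stood at 8.84 and 8.35, a difference of -0.49. The other named aquaporins above the range, AQP2 (0.13), AQP6 (0.19) and AQP7 (-0.037), differed little.

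The transmembrane mucin MUC13 stood at 8.53 and 9.04, a difference of 0.51, near the 0.42 of MUC1. MUC12 lay within the range with the empty vector (6.89) and just above it with miR-130b (7.31), where 15 olfactory receptor genes were at least as high. Of the 8 other transmembrane mucins, 5 were within the range on both arrays, as were 4687 of the 18417 named genes. The 3 above it on an array were higher with miR-130b, as was MUC1, beside 55.8% of all genes above the range.

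Of the aspartic proteases related to NAPSA, CTSD, the lysosomal cathepsin D, stood at 13.24 and 13.19, a difference of -0.054. BACE1 and BACE2 differed by 0.47 and 0.15. Of 4 measured collectins related to SFTPD, COLEC11 was the 1 above the range (7.94 and 8.03). SFTPA1 and SFTPA2, which encode surfactant protein A, have no probe set with a single symbol and were not analysed here.

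Other genes known from alveolar type II cells were mixed. Of 22 listed, 19 were measured and 8 of these were within the olfactory receptor range on both arrays, as were 4687 of all 18417 named genes. Of the 11 above it on an array, 5 were higher and 6 lower with miR-130b, with a median of -0.11, beside 55.8% of all genes above it that were higher. LAMP3, a membrane protein of lamellar bodies, went from 8.35 to 6.81, within the range, at least 2.27-fold lower. CSF2RA, a receptor chain for the growth factor that controls surfactant clearance, went from 9.03 to 7.08, within the range, at least 3.62-fold lower. MFSD2A, a lysophospholipid transporter, stood at 10.92 and 9.96, a difference of -0.96. Against these, DMBT1, which encodes a glycoprotein that binds surfactant protein D, stood at 7.74 and 10.85, a difference of 3.11. On the empty-vector array, 3 olfactory receptor genes were at least as high as DMBT1. This list, like the others, was chosen with earlier results of these data known. CTSH, a protease of surfactant protein precursors, stood at 8.65 and 9.29, a difference of 0.65.

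The listed genes of lipid synthesis and lamellar bodies, not all of which make surfactant lipid, were mostly measured well and mostly differed little. Of 27 listed, 25 were measured and 23 were above the range on an array, as were 74.6% of all named genes. Of the 23, 9 were higher and 14 lower, with a median of -0.019, beside 55.8% of all genes above the range that were higher. The exceptions were LAMP3, also in this list, and PLIN2, a lipid droplet coat protein, which stood at 12.59 and 11.23, a difference of -1.36 (2.56-fold lower). These 2 were the only ones of the 23 at least 2-fold lower, where 1.7% of all genes above the range were. FASN, fatty acid synthase, differed by 0.45 and ELOVL6, a fatty acid elongase, by 0.43.

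For proprotein processing, 9 of 10 listed genes were above the range, as were 74.6% of all named genes. Of the 9, 4 were higher and 5 lower, with a median of -0.054, beside 55.8% of all genes above the range that were higher. CTSH at 0.65 and FURIN, a proprotein convertase, at 0.41 had the highest differences. NEDD4L and ITCH, ubiquitin ligases of which NEDD4L is known to act on the surfactant protein C precursor, had the lowest, at -0.40 and -0.21. None was past 2-fold, where 1.7% of all genes above the range were at least 2-fold lower and 1.37% at least 2-fold higher.

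Of 25 other lung epithelial transcription factors, 21 were above the olfactory receptor range on both arrays, as were 71.8% of all named genes. Of the 21, 14 were higher and 7 lower with miR-130b, with a median of 0.11, beside 56.1% of all genes above the range on both arrays that were higher. FOXA2, which acts with NKX2-1 on surfactant genes, stood at 10.54 and 10.63, CEBPA at 8.80 and 8.79, and GATA6 at 9.42 and 9.88. SOX2, a factor of airway rather than alveolar progenitors, stood at 9.25 and 10.63, a difference of 1.38 (2.60-fold higher). SOX9, a factor of distal lung progenitors, differed by 0.61. ID2, another distal progenitor gene, differed by -0.82, and ETV5, a factor that maintains alveolar type II cells, by -0.60.

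**Figure D3:**
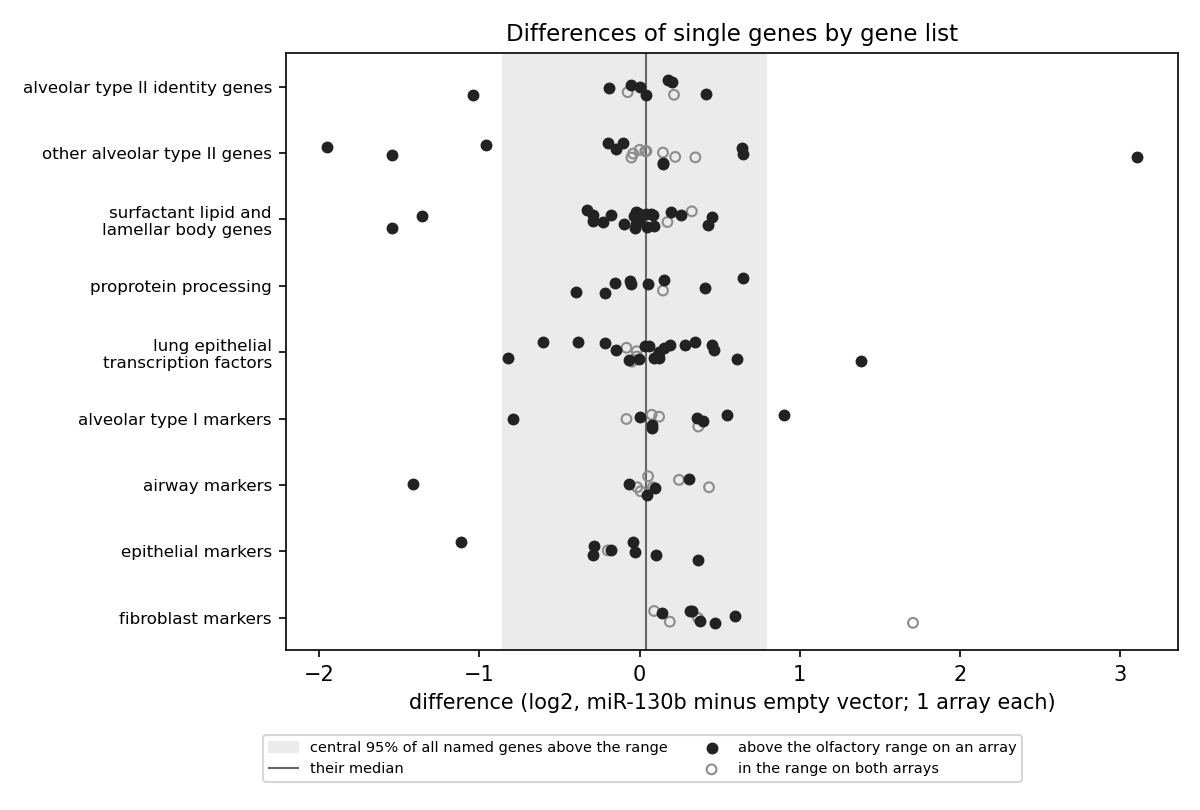
Differences of single genes (log2, miR-130b minus empty vector, 1 array each; horizontal axis) by gene list, as filled points above the olfactory receptor range on an array and open points within it on both; the grey band holds the central 95% of named genes above the range (-0.86 to 0.79). The alveolar type II identity genes lie inside the band apart from ABCA3, and vertical scatter within a list has no meaning.

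Markers of other cell types stood as follows. For comparison, 74.6% of all named genes were above the range on an array, and 55.8% of those were higher with miR-130b. Of 12 measured alveolar type I markers, 8 were above the range on an array, 6 higher, 1 lower and 1 equal, with EMP2 at 0.90 and SEMA3E at -0.79. RTKN2 stood at 6.99, within the range, and at 7.53. Of 11 airway markers, 5 were above it. MUC5B, the gel-forming airway mucin, was the 1 of them above every olfactory receptor gene and stood at 10.19 and 8.77, a difference of -1.41, while SCGB1A1 (-0.064), SCGB3A1 (0.31) and TFF3 (0.094) lay between the upper end of the range and the highest olfactory receptor gene. Of 9 epithelial markers, 8 were above the range, 2 higher and 6 lower, with CDH1 at -1.12, KRT7 at -0.29, KRT19 at 0.37 and KRT8 at 0.10.

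Genes used as markers of fibroblasts, leukocytes and endothelium were read next. Of these, COL1A1, CD14, CD68 and CLDN5 alone lay above every olfactory receptor gene on both arrays. The sums below therefore hold many values at or near background. All 6 fibroblast markers above the range of 10 measured were higher, THY1 (0.60) and LUM (0.47) most among the 6. Of all genes above the range, 55.8% were higher. Among the fibroblast markers, COL1A1 alone lay above every olfactory receptor gene on both arrays. The sum of the 10 levels on the linear scale (2 to the power of each log2 value) was 1399 on the empty-vector array and 1862 on the miR-130b array. Without COL1A1, the brightest, the other 9 summed to 972 and 1330. DCN, POSTN, PDGFRA and FAP were within the range on both arrays. FAP, at 5.26 and 6.97, had the highest difference of the 10 (1.71). Of 9 leukocyte markers, 6 were higher and 3 lower, beside 58.6% of all named genes that were higher. The defining marker PTPRC was within the range (4.38 and 4.58). The leukocyte markers summed to 3469 and 2353 with CD68, whose difference was -1.18, and the other 8 summed to 1214 and 1360. ITGAM was at -0.66 and CD14 at 0.63, while CSF1R stood at 7.06, within the range, and at 7.18, at its upper end. The 8 endothelial markers summed to 977 and 1129, and the 7 without CLDN5, the brightest, to 593 and 718. Of the 8, 5 were within the range, PECAM1 among them (4.85 and 4.97). KDR stood at 6.68, within the range, and at 7.40, and CDH5 differed by 0.14. The part of these markers in the values of the 10 genes was not tested.

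The sequence around the transcript start of the genes was described as a feature that the choice of genes did not use. RefSeq promoter windows of 300 bases, 250 before the transcript start and 50 after it (GRCh38.p14), were found for 9 of the 10 genes (14 windows). SFTPC had no window and was not searched. The windows were searched on both strands for CTCAAG, the core letters of NKX2-1 sites, for TGTTTAC and TATTTAC of FOXA factors, and for TTNNGCAA of C/EBP factors. The NKX2-1 letters were in 4 of the 14 windows and in 12.4% of all 35116 windows, the FOXA letters in 1 and in 5.97%, and the C/EBP letters in 2 and in 10.5%. The windows of MUC1 overlap and share a match. By gene, the NKX2-1 letters were in 3 of 9, beside 14.8% of all 27305 genes. The FOXA letters were in 1 of 9, beside 7.25%, and the C/EBP letters in 2 of 9, beside 12.7%. The NKX2-1 letters lie after the transcript start in MUC1 and NKX2-1 and before it in NAPSA. ABCA3, SFTPB, LPCAT1 and AQP5 had no match in these windows, which says nothing about binding by the factors.

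The 4 matches that lie before the transcript start are shown, each within 30 bases of its gene's strand, with the matching letters in capitals, to let the sequence be read beside the levels above. They lie in NAPSA at chr19:50369481-50369510, minus strand, where the match begins 196 bases before the start and is read on the other strand. In NKX2-1 the FOXA match lies at chr14:36519668-36519697, minus strand, 130 bases before the start. In SFTPD the C/EBP match lies at chr10:79949280-79949309, minus strand, 193 bases before the start, and in SLC34A2 at chr4:25655793-25655822, plus strand, 47 bases before the start.
NAPSA: cgcaggtccgaaCTTGAGgccttgtggggt
NKX2-1: aaacttaaaggTGTTTACcttgtcatcagc
SFTPD: gcctgatagtgTTCTGCAAactatagtgat
SLC34A2: ggccagcctctTTGCGCAAcaccttcgcca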

How the data were processed

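RNA from Ago2 precipitates of A549 cells was measured on 1-channel arrays after biotin labelling of whole-transcript cDNA, per the labels' protocols, which also describe excised tissue and a small-RNA kit. The authors deposited log2 expression values per probe set; the log base was taken from their span (1.95 to 14.2). How they computed and normalized these values is not given in the sources used here. Probe sets were named through a supplied platform annotation (19460 with 1 symbol, 1754 with several, 12083 unnamed here), with symbols updated by Entrez ID (19429 matched). Where a gene had several, their mean was taken.

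Olfactory receptor genes had symbols of OR, digits, letters and digits. Where 1 side lay within their range, "at least" sets the brighter value against the range's upper end on the other array. Folds use a threshold of 2. Named genes were the 10, MIR130B and in each list, among genes above the range on an array, the 2 largest positive and the 2 largest negative differences, where there were any. Others (EPCAM, MFSD2A, FOXA2, CEBPA, GATA6, SFTPA1, SFTPA2, COL1A1, DCN, POSTN, PDGFRA, FAP, PTPRC, PECAM1, CLDN5) were added after their values were seen. The genes and 17 other lists were chosen with earlier results of these data known. Alternatives were quantile normalization, cyclic loess, centring, the brightest probe set, a 1.5-fold threshold, other range ends and filters on low values. The counting was tested on simulated data. Python 3.11.15, numpy 2.4.6, pandas 2.3.3, matplotlib 3.10.9, R 4.3.3 and limma 3.58.1 were used. The number of arrays limits the precision.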

Additional observations from a re-analysis of the deposited data

How the results depend on the processing

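Across quantile normalization, cyclic loess, centring on the median difference and the brightest probe set per gene, the difference of each of the 10 genes moved by at most 0.061, less than the pooled SD between probe sets (0.18). The brightest probe set could not move any of them, since each has 1 probe set. Centring took the same 0.053 from each difference, so only the normalizations could move the genes apart. ABCA3 ranged from -1.09 to -1.0035, past 2-fold in each of these settings but close to it in the weakest, and MUC1 from 0.36 to 0.46. SFTPD, near 0, ranged from -0.011 to 0.041. The count of genes within the olfactory receptor range on both arrays went from 2 to 5 when the range was ended at the 99th percentile, since it then took in SFTPB, SFTPC and NAPSA. Without a filter, 196 named genes were past 2-fold on the higher side and 252 on the lower side, and with genes at or above the median mean level these counts were 122 and 147, because fewer genes were counted. Under the normalizations, centring and the brightest probe set these counts ran from 166 to 209 and from 244 to 285. The median difference of the 10 genes, 0.021, changed sign: it was -0.028 with cyclic loess and -0.032 with centring, and the mean was -0.031. No paired analysis was possible because each group has 1 array, and no array could be left out. Low signals limit what can be said of the genes at background.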
